A study of Homo sapiens with 3 samples.

Results

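Mitochondrial respiratory chain subunits were examined in human astrocytes and their neuroepithelial precursors by taking every Affymetrix probe set whose only gene symbol was that of a nuclear-encoded subunit of complexes I to V. The rule used symbols alone (NDUFA, NDUFB, NDUFC, NDUFS or NDUFV plus number, SDHA to SDHD, UQCR, COX4 to COX8 and ATP5) and no measured value. It took 152 of 54675 probe sets, which carried 78 gene symbols of 19775 genes. Of these symbols 75 were subunit genes, with 32 in complex I, 3 in complex II, 6 in complex III, 17 in complex IV and 17 in complex V. The inhibitor gene ATP5IF1 and the pseudogenes ATP5MC2P1 and COX6A1P1 also matched the rule and were kept out of the counts by complex.

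The samples were 3 cultures of the embryonic stem cell line H9, an established human line, with 1 array each. RA astrocytes were harvested at day 210 of differentiation after retinoic acid from day 10 to 21, and FGF8 astrocytes at day 210 after fibroblast growth factor 8 on those same days. Neuroepithelial cells were harvested at day 17 and received no morphogen. Differentiation had begun with embryoid bodies lifted off mouse embryonic fibroblasts, and all cultures carried the H9 genotype, so each group stands for 1 line. No difference below has a replicate check, no test was possible, and having a single array per group limits how precise any value is.

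The respiratory chain passes electrons from NADH through complex I, or from succinate through complex II, to ubiquinone, then through complex III and cytochrome c to complex IV, where oxygen is reduced to water. Complexes I, III and IV pump protons across the inner mitochondrial membrane, and complex V, the ATP synthase, makes ATP as the protons flow back. Most subunits are encoded in the nucleus, translated in the cytosol and imported, and some catalytic ones are encoded in the mitochondrial genome. In brain, astrocytes are known for active glycolysis and lactate export beside respiration.

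Labels and array quality were checked first. The summed signal of 12 astrocyte markers was 53529 in RA and 44356 in FGF8 astrocytes, against 9202 in neuroepithelial cells, with 12, 12 and 8 markers above the floor. The floor was the median of all probe sets, a signal of 26.4, and lower values were treated as unmeasured. The 10 neuroepithelial markers summed to 11227 in RA and 16586 in FGF8 astrocytes, against 27444 in neuroepithelial cells. By gene, 0 of them were at least 2-fold higher and 9 lower in RA astrocytes (median log2 difference -5.23). In FGF8 astrocytes 0 were higher and 8 lower (median -3.69). The 10 proliferation markers summed to 2524 in RA and 12523 in FGF8 astrocytes, against 20603 in neuroepithelial cells. Neuronal markers (11 genes) summed to 26953, 26101 and 19295 in the same order of arrays, and oligodendrocyte markers (7 genes) to 1092, 6459 and 383. The neuronal sum rests on a few bright genes such as GAP43, a growth cone protein, which had 12114 in RA and 5168 in FGF8 astrocytes, against 922 in neuroepithelial cells. Of the 11 neuronal markers, 2 were at least 2-fold higher and 6 lower in RA astrocytes (median log2 difference -1.82), and 3 higher and 3 lower in FGF8 astrocytes (median -0.09).

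Markers of mesenchyme, muscle and heart, endoderm, pluripotency and endothelium were highest in the neuroepithelial array, and those of microglia were lowest there. Fibroblast and mesenchyme markers (8 genes) summed to 158 in RA and 505 in FGF8 astrocytes, against 9159 in neuroepithelial cells, muscle and heart markers (12 genes) to 344 and 177, against 3866, and endoderm markers (7 genes) to 98.7 and 107, against 3344. Pluripotency markers (5 genes) summed to 150 and 140, against 4967, and endothelial markers (6 genes) to 147 and 97.5, against 243. Microglial markers (8 genes) summed to 110, 79.0 and 62.6, with 1, 1 and 0 above the floor, and AIF1 was at the floor on every array. The ratio of 3' to 5' signal of ACTB, which climbs as RNA shortens, was 6.67 in RA and 6.63 in FGF8 astrocytes, against 1.33 in neuroepithelial cells. That of GAPDH differed less, at 1.79 in RA and 1.65 in FGF8 astrocytes, against 0.98 in neuroepithelial cells. Hybridisation spikes (18 probe sets) averaged 1.39 ± 0.22 log2 units (SD) above neuroepithelial cells in RA astrocytes and 0.12 ± 0.16 in FGF8 astrocytes, in the deposited values. The part of culture makeup, RNA length and hybridisation in the differences below was not tested, and in such bulk RNA fewer cells of a type and less RNA per cell cannot be told apart.

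Subunit genes were measurable nearly throughout. After quantile normalization 68 of the 75 were above the floor on all 3 arrays and 5 were at the floor on all 3, so that 70 could be compared in each pair of arrays. The 5 at the floor were COX6B2, COX7B2 and COX8C, isoforms known from testis, COX7A1, the heart and muscle isoform, and the only single-symbol probe set of ATP5MF. Of the 75 genes, 67 had a mean log2 signal of at least 8. No probe set row matching the rule was analysed here for SDHB or UQCRFS1.

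**Figure D1:**
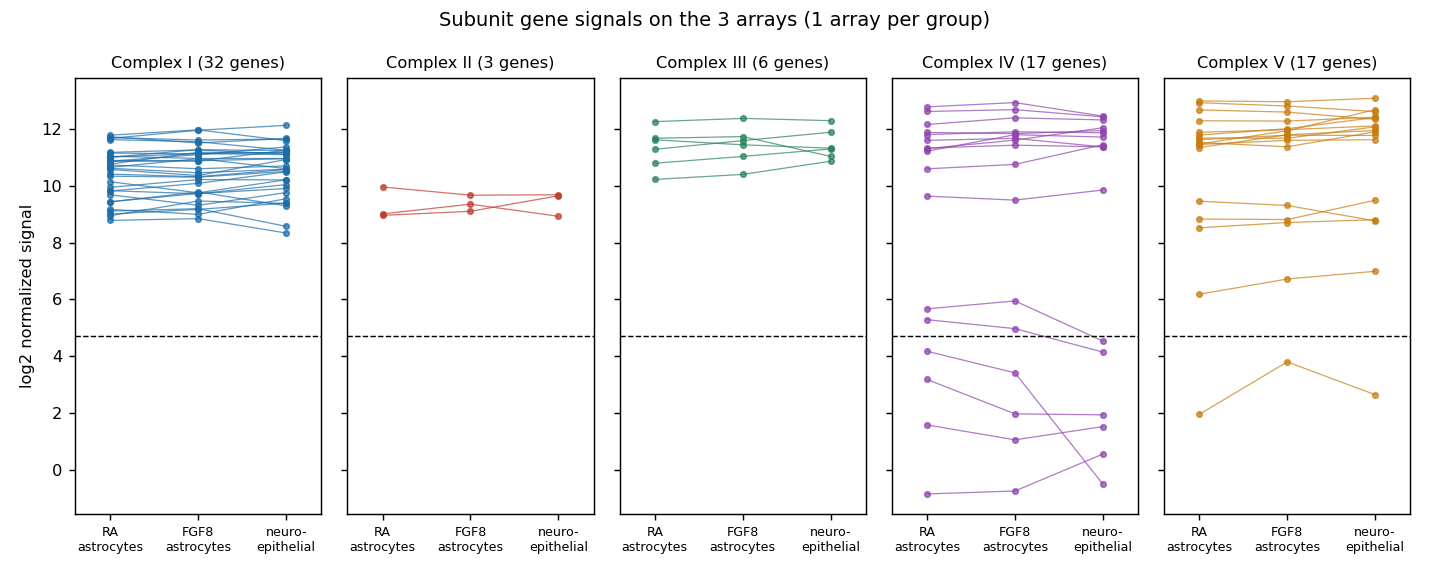
Log2 normalized signal (y axis) of each subunit gene on the RA astrocyte, FGF8 astrocyte and neuroepithelial arrays (x axis), in 1 panel per complex, with a line joining the 3 values of a gene and the floor of 4.72 dashed. The lines of complexes I to III are close to flat and stay above the floor, and the genes under the floor belong to complexes IV and V.

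Promoters of these genes were searched for motifs they may hold in common. RefSeq promoters (GRCh38.p14), from 250 bases before to 50 bases after the start, were matched for 64 of the 75 genes and searched on both strands for letters known to be bound by factors of mitochondrial biogenesis. The NRF1 motif, GCGCA and GCGC with any base between them, was in 16 of 64 (25%) subunit promoters, against 5.78% of all 35116 promoters. The ETS motif CCGGAAG, bound by GABPA, was in 18 (28.1%), against 10.3% of all, and the YY1 motif AAGATGGC in 10 (15.6%), against 2.89%. Restricting the comparison to 22198 promoters of protein-coding genes gave 7.38%, 12.8% and 3.53%.

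At least 1 of these 3 motifs was in 36 subunit promoters (56.2%), against 5981 of all 35116 promoters. The GC box GGGCGG, which serves many housekeeping promoters, was in 39 (60.9%), against 45.0% of all and 56.3% of protein-coding ones. A promoter counted once however many matches it held, and matches of different motifs were allowed to overlap. By complex the NRF1 motif was in 6 of 30 promoters of complex I, 2 of 2 of complex II, 3 of 5 of complex III, 1 of 14 of complex IV and 4 of 13 of complex V. A match describes the letters only and no binding was measured.

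The 250 bases upstream of 4 genes are shown because their signals are described below, with matches to the NRF1, ETS and YY1 motifs in capitals. UQCRQ (chr5:132866392-132866641, plus strand) and UQCRC1 (chr3:48609647-48609896, minus strand) were the highest and lowest members of complex III against neuroepithelial cells. SDHD (chr11:112086623-112086872, plus strand) holds an NRF1 and an ETS match. ATP5MC2 (chr12:53676084-53676333, minus strand), the lowest subunit gene of the RA array against neuroepithelial cells, holds none of the 3 in this stretch.
UQCRQ: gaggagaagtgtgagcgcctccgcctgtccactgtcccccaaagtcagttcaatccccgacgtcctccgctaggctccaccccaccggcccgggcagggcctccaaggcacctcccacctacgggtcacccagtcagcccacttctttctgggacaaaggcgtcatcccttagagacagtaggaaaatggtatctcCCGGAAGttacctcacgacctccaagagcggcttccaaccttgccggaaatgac
UQCRC1: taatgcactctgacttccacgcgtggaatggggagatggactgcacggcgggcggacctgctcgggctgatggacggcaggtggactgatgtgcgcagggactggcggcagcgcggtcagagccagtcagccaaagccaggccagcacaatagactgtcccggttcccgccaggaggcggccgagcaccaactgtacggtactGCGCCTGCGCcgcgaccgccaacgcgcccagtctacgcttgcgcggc
SDHD: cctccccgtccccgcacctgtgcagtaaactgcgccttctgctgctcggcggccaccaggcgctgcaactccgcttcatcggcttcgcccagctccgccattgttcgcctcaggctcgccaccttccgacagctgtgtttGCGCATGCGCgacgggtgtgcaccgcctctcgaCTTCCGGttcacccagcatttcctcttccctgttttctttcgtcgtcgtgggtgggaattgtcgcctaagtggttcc
ATP5MC2: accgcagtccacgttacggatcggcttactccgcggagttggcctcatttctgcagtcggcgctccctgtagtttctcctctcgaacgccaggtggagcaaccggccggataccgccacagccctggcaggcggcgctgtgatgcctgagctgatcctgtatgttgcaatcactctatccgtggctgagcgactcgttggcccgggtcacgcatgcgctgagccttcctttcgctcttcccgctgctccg

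The first comparison set RA astrocytes against neuroepithelial cells, asking how far the respiratory chain genes differ between a caudally specified astrocyte culture and its early precursor stage. Of 70 subunit genes compared, 0 were at least 2-fold higher and 1 was at least 2-fold lower in RA astrocytes, while 32.7% of all 13339 genes compared passed 2-fold (18.1% higher and 14.6% lower). Among the 5717 genes with a mean log2 signal of at least 8, as 67 of the 75 subunit genes had, 28.4% passed. At 1.5-fold, 3 subunit genes were higher and 11 lower, against 53.5% of all genes (29.2% higher and 24.3% lower). The middle 50% of the subunit differences spanned 0.47 log2 units, against 1.28 for all genes and 1.19 for the bright ones.

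The median log2 difference of the subunit genes was -0.14 in RA astrocytes against neuroepithelial cells, and that of all genes compared was 0.07. This direction depended on how the arrays were scaled. The subunit median minus that of all genes was -0.21 after quantile normalization, but it was above 0, by 0.09 in the deposited values, by 0.13 with array medians set equal and by 0.03 with the medians of cytosolic ribosomal protein genes set equal. The median of all genes itself was -0.03, 0.34 and -0.33 under these 3 scalings. Of the 70 genes, 15 were above 0 and 9 below 0 under all 4 scalings, and 46 turned.

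**Figure D2:**
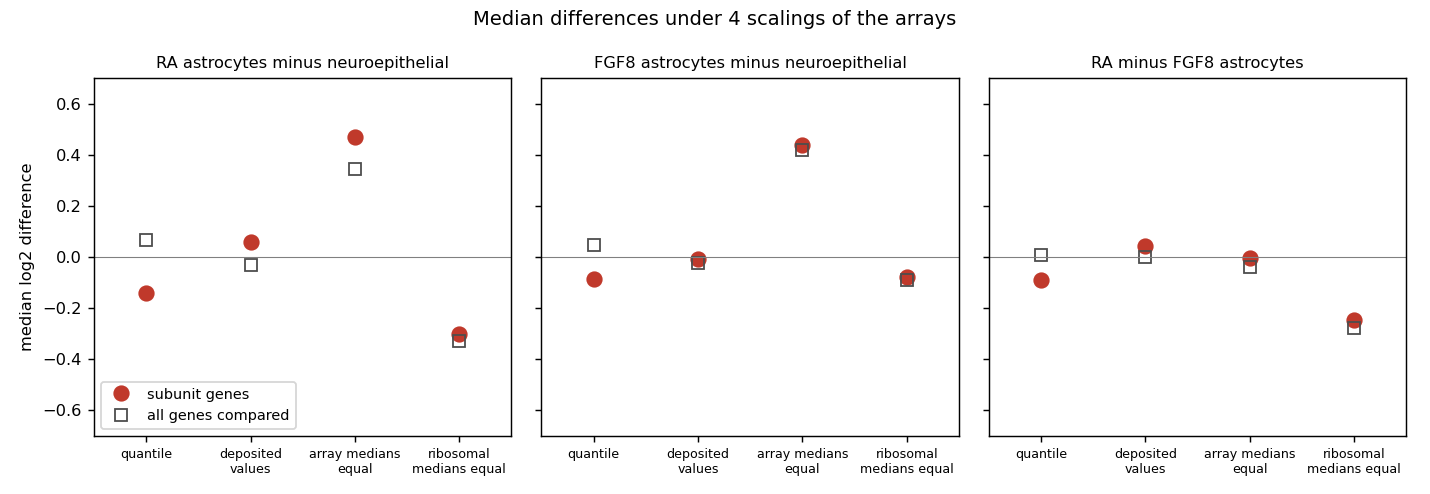
Median log2 difference (y axis) of the subunit genes (filled circles) and of all genes compared (open squares) under 4 scalings of the arrays (x axis), in 1 panel per comparison. The subunit median was -0.14, 0.06, 0.47 and -0.30 in RA against neuroepithelial cells, and under the last 3 scalings it lay within 0.13 of the median of all genes.

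In the second comparison, FGF8 astrocytes against neuroepithelial cells, 1 of 70 subunit genes was at least 2-fold higher and 0 were at least 2-fold lower, while 23.1% of 13004 genes compared passed 2-fold (12.8% higher and 10.2% lower). Of the bright genes 18.2% passed. At 1.5-fold, 3 were higher and 3 lower, against 43.1% of all genes (23.4% higher and 19.6% lower). The subunit median was -0.09, against 0.05 for all genes, and it lay above the median of all genes by 0.02, 0.02 and 0.01 in the deposited values, with array medians equal and with ribosomal protein medians equal. The median of all genes was -0.02, 0.42 and -0.09 under these scalings. Both astrocyte arrays were compared with the same neuroepithelial array, so the 2 comparisons are not independent.

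RA astrocytes were then set against FGF8 astrocytes, which asks whether early patterning leaves a difference at day 210. Of 70 subunit genes, 0 were at least 2-fold higher and 0 at least 2-fold lower in RA astrocytes, and the counts at 1.5-fold were also 0 and 0. Of all 12958 genes compared, 17.5% passed 2-fold (9.69% higher and 7.86% lower) and 36.1% passed 1.5-fold (19.5% higher and 16.6% lower), while 13.1% of the bright genes passed 2-fold. The subunit differences ran from -0.58 to 0.39 with a median of -0.09, against 0.01 for all genes. The subunit median minus that of all genes was -0.10 after quantile normalization and 0.04, 0.03 and 0.03 under the other 3 scalings. The median of all genes stood at -0.28 with ribosomal protein medians equal and between -0.04 and 0.01 otherwise.

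**Figure D3:**
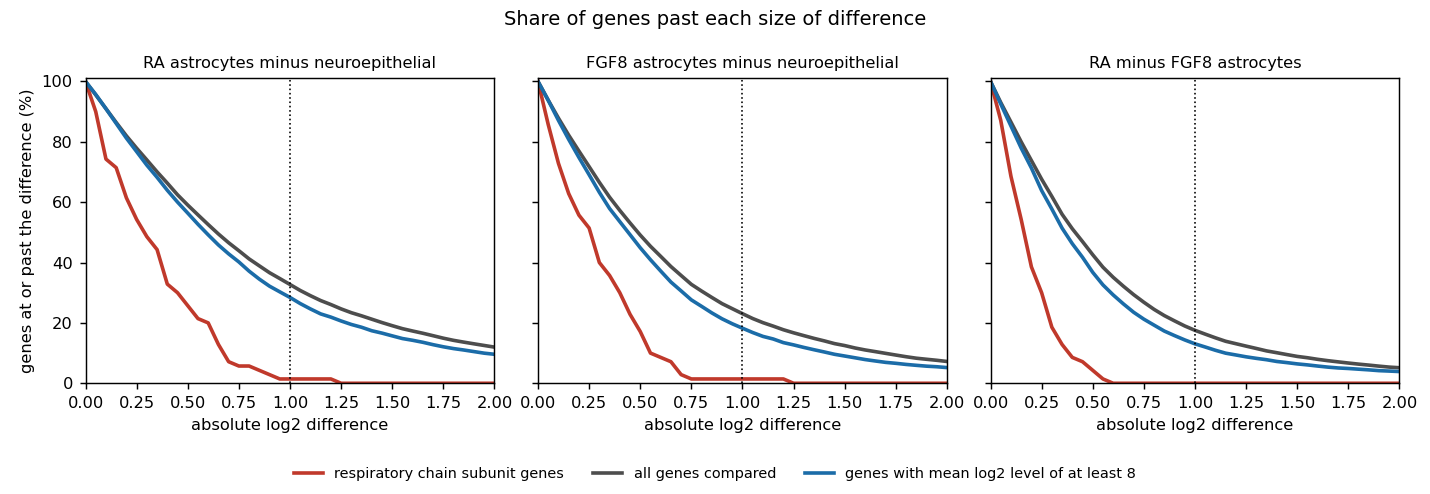
Share of genes in percent (y axis) whose absolute log2 difference reaches each size (x axis), for the subunit genes, all genes compared and genes with a mean log2 signal of at least 8, with 2-fold dotted and 1 panel per comparison. At 2-fold the subunit curve is at 1.43%, 1.43% and 0%, while the curve of all genes is at 32.7%, 23.1% and 17.5%.

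By complex, the median difference of RA astrocytes against neuroepithelial cells was -0.08 for complex I, 0.08 for complex II, -0.27 for complex III, -0.06 for complex IV and -0.25 for complex V. The highest and lowest of these medians were 0.35 apart, and the members within a complex spread more widely, from -0.67 to 0.54 in complex I and from -1.21 to 0.69 in complex V. In FGF8 astrocytes against neuroepithelial cells the medians were -0.09, -0.01, -0.09, 0.07 and -0.14 for complexes I to V, 0.21 apart. In RA against FGF8 astrocytes they were -0.03, -0.14, -0.15, -0.10 and -0.04, 0.11 apart. The ranges of the members overlapped between every pair of complexes in all 3 comparisons.

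**Figure D4:**
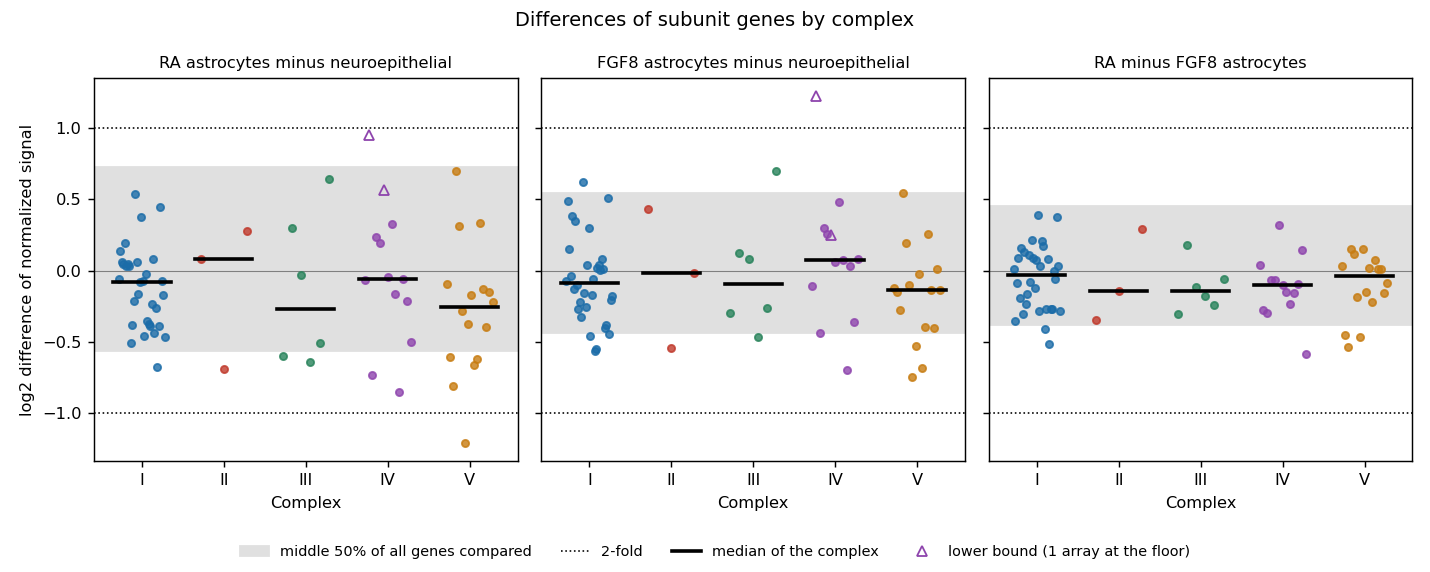
Log2 difference of each subunit gene (points, y axis) by complex (x axis) in the 3 comparisons, with the median of each complex as a bar, the middle 50% of all genes shaded, 2-fold dotted and lower bounds as open triangles. Medians of the complexes lie between -0.27 and 0.08, and ATP5MC2 at -1.21 and COX4I2 at a bound of 1.22 are the points past 2-fold.

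In complex I, which oxidises NADH, 20 of 32 genes were below 0 in RA and 19 in FGF8 astrocytes against neuroepithelial cells after quantile normalization. These counts followed the scaling, with 15 and 17 below 0 in the deposited values, 1 and 1 with array medians equal and 28 and 20 with ribosomal protein medians equal. NDUFS4, an accessory subunit whose loss causes Leigh syndrome, had a signal of 903 in RA and 1088 in FGF8 astrocytes, against 1441 in neuroepithelial cells. It was 1.60-fold lower in RA astrocytes, the lowest member there, and below 0 under all 4 scalings. NDUFA9, which sits where the membrane and matrix arms meet, had 553 and 586, against 381. It was the highest member, 1.45-fold higher in RA and 1.54-fold higher in FGF8 astrocytes, above 0 under all 4 scalings in both.

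The 5 core genes measured differed among themselves. NDUFS7, which carries an iron-sulfur cluster near the ubiquinone site, had 440 in RA and 460 in FGF8 astrocytes, against 324 in neuroepithelial cells. NDUFV1, the flavin-binding subunit, had 824 and 637, against 868, and NDUFS1, the largest iron-sulfur subunit, 494 and 707, against 668. NDUFS7 was thus higher in both astrocyte arrays, by log2 0.44 and 0.51, while the chosen probe set of NDUFS1 was at -0.44 in RA (turning to 0.02 with array medians equal) and 0.08 in FGF8 astrocytes. Other probe sets of NDUFS1 did not share the lower RA value. One had 301 and 323, against 173, at 0.80 and 0.90, and another 142 and 181, against 128, at 0.15 and 0.50. NDUFV2 differed by -0.17 and -0.20 and NDUFS3 by -0.26 and 0.01, and apart from NDUFS3 in FGF8 astrocytes their directions turned with the scaling.

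The 27 accessory genes of complex I had a median of -0.07 in RA and -0.10 in FGF8 astrocytes against neuroepithelial cells. NDUFB6, a membrane arm subunit, was the lowest in FGF8 astrocytes, with 1526 in RA and 1319 in FGF8 astrocytes, against 1947 in neuroepithelial cells. NDUFB4, another membrane arm subunit, had 3266 and 3977, against 4486. Its difference was -0.46 in RA and -0.17 in FGF8 astrocytes and turned with the scaling in both. NDUFA4, now named COXFA4 and placed in complex IV, fell outside the symbol rule, and its signal was 5840 and 5321, against 5174.

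Between the astrocyte arrays the lowest complex I gene was NDUFS1 at -0.52, and the highest were NDUFB3 at 0.39 and NDUFV1 at 0.37. These 3 kept their direction under all 4 scalings, and none reached 1.5-fold. The other probe sets of NDUFS1 above the floor on all 3 arrays were at -0.10 and -0.35. A dim one, at the floor in FGF8 astrocytes, went the other way, at a bound of 0.31.

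Complex II, succinate dehydrogenase, was represented by 3 of its 4 genes. SDHA, the flavin-binding catalytic subunit, had 516 in RA and 655 in FGF8 astrocytes, against 487 in neuroepithelial cells. SDHC, a membrane anchor with haem, had 498 and 550, against 803, and SDHD, its partner anchor, had 995 and 815, against 823. The chosen probe sets of the anchors differed in direction in RA astrocytes, with SDHC 1.61-fold lower and SDHD 1.21-fold higher, each with its direction under all 4 scalings. SDHD was only 0.01 above 0 with ribosomal protein medians equal, and its other probe set was at the floor. In FGF8 astrocytes SDHC was at -0.55 and SDHD at -0.01, and both turned with the scaling, while SDHA was 1.34-fold higher under quantile normalization and above 0 under all 4.

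SDHC was measured by 7 probe sets. Of these, 6 were above the floor on all 3 arrays, and their differences in RA astrocytes ran from -0.80 to -0.02. In FGF8 astrocytes the same 6 ran from -1.21 to -0.09, so that all 6 were below 0 in both comparisons after quantile normalization. They split in RA against FGF8 astrocytes, where the chosen probe set was at -0.14 and the others ran from 0.08 to 0.46. The complex II median of -0.14 in that comparison is the value of this chosen probe set.

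Complex III passes electrons from ubiquinol to cytochrome c, and its 6 genes were split in direction. UQCRQ, a small ubiquinone-binding subunit, had 3270 in RA and 3409 in FGF8 astrocytes, against 2100 in neuroepithelial cells. It was 1.56-fold and 1.62-fold higher, the highest of the complex in both, and above 0 under all 4 scalings. UQCRC1 and UQCRC2 are the matrix core proteins. UQCRC1 had 1197 and 1354, against 1867, and UQCRC2 had 1777 and 2101, against 2522.

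Both core genes were thus lower in both astrocyte arrays after quantile normalization, UQCRC1 by 1.56-fold in RA and 1.38-fold in FGF8 astrocytes. UQCRC1 in RA astrocytes kept its direction under all 4 scalings, and the other 3 differences turned. UQCR10, a small subunit beside the Rieske protein, differed by -0.60 and -0.29, UQCRB by -0.03 and 0.08 and UQCR11 by 0.30 and 0.12. Another, dimmer probe set of UQCR10 did not share its lower values, at -0.08 and 0.02. UQCRB had 4913 and 5316, against 5029. UQCRQ minus ATP5MC2, a difference that no constant scaling can alter, was 1.85 in RA and 1.44 in FGF8 astrocytes after quantile normalization and 1.75 and 1.36 in the deposited values.

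Complex IV, cytochrome c oxidase, holds general subunits and tissue-restricted isoforms. The 11 general genes had a median of -0.07 in RA and 0.06 in FGF8 astrocytes against neuroepithelial cells. COX7A2L, which bridges complexes III and IV in supercomplexes, had 1552 in RA and 1728 in FGF8 astrocytes, against 2798 in neuroepithelial cells. COX5A, a matrix-side subunit, had 2542 and 3127, against 4229, and COX6C, a membrane subunit, had 7047 and 7818, against 5616.

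COX7A2L was the lowest of the complex, 1.80-fold and 1.62-fold lower, and COX5A was 1.66-fold lower in RA astrocytes. COX6C was the highest general subunit, 1.25-fold and 1.39-fold higher. These directions held under all 4 scalings. COX5A at -0.44 in FGF8 astrocytes turned to 0.13 with array medians equal. A dim probe set of COX5A was at 0.14 in RA and -0.28 in FGF8 astrocytes. Most general partners of the restricted isoforms differed little in RA and FGF8 astrocytes, with COX4I1 at -0.07 and -0.11, COX6A1 at 0.19 and 0.25, COX6B1 at -0.05 and 0.06, COX7A2 at -0.16 and 0.07, and COX7B at -0.06 and 0.03. COX8A, the partner of COX8C, was at -0.50 in RA and 0.08 in FGF8 astrocytes. Its RA difference turned to 0.10 with array medians equal. Of these only COX6A1 held 1 direction under all 4 scalings in both. COX8A was the lowest subunit gene between the astrocyte arrays, with 2385 in RA and 3571 in FGF8 astrocytes, a difference of -0.58 that stayed below 0 under all 4 scalings. COX7C, at 0.14 in that comparison, turned with the scaling.

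Of the 6 tissue-restricted isoforms 4 were at the floor on every array. COX4I2, the subunit 4 isoform known from lung and from cells in low oxygen, had 50.8 in RA and 61.6 in FGF8 astrocytes, against a value at the floor (23.1) in neuroepithelial cells. After quantile normalization it was at least 1.93-fold higher in RA and at least 2.34-fold higher in FGF8 astrocytes. Both differences stayed above 0 under all 4 scalings, and the signals were dim on all arrays. With array medians equal they were bounds of 0.92 in RA and 1.34 in FGF8 astrocytes on the log2 scale. In the deposited values and with ribosomal protein medians equal the neuroepithelial value was above the floor. The measured differences were then smaller than the quantile bounds, at 0.69 and 0.32 in RA and 1.06 and 0.99 in FGF8 astrocytes. COX6A2, the heart and muscle isoform, had 39.0 and 31.3, against a value at the floor (17.6), and was at least 1.48-fold and at least 1.19-fold higher. It was also the highest complex IV gene in RA against FGF8 astrocytes, at 0.32.

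Complex V, the ATP synthase, had 13 of 16 compared genes below 0 in RA astrocytes and 12 in FGF8 astrocytes against neuroepithelial cells after quantile normalization. The counts were 8 and 11 in the deposited values, 3 and 2 with array medians equal and 13 and 12 with ribosomal protein medians equal. The c ring, which turns as protons pass, is encoded by 3 genes with 1 mature protein. ATP5MC2 had 2844 in RA and 3925 in FGF8 astrocytes, against 6582 in neuroepithelial cells. ATP5MC3 had 2949 and 2657, against 3832, and ATP5MC1 had 367 and 418, against 448.

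All 3 were thus dimmer in both astrocyte arrays, with ATP5MC2 2.31-fold lower in RA and 1.68-fold lower in FGF8 astrocytes. ATP5MC2 stayed below 0 under all 4 scalings in both comparisons, at -0.92 in the deposited values and -0.50 with array medians equal in RA astrocytes, so that of the 4 scalings it was past 2-fold only after quantile normalization and with ribosomal protein medians equal (-1.28). ATP5MC1 and ATP5MC3 turned above 0 with array medians equal. The 3 genes encode the same mature protein and the probe set of ATP5MC2 is of the _s_at type, which can bind related transcripts. The pseudogene ATP5MC2P1 had 67.7 and 38.3, against 37.6.

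The F1 head makes the ATP. ATP5F1A, its alpha subunit, had 8142 in RA and 7984 in FGF8 astrocytes, against 8701 in neuroepithelial cells. ATP5F1B, the catalytic beta subunit, had 2609 and 3564, against 3964, and ATP5F1D, the delta subunit of the central stalk, had 703 and 634, against 435. ATP5F1D was the highest of complex V, 1.62-fold and 1.46-fold higher and above 0 under all 4 scalings in both. ATP5F1B was 1.52-fold lower in RA astrocytes, turning to 0.01 with array medians equal. ATP5F1E, the epsilon subunit, was at 0.31 and 0.19, above 0 under all 4 scalings. A dim probe set of ATP5F1E went the other way, at -0.40 and -0.30.

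ATP5F1C, the gamma subunit, was described differently by its probe sets. The one chosen by rule was dim, with 72.5 in RA and 105 in FGF8 astrocytes, against 127 in neuroepithelial cells, a log2 difference of -0.81 in RA astrocytes. Its 3 bright probe sets were of the cross-hybridising type, and they lay between -0.05 and 0.10 in RA and between -0.02 and 0.12 in FGF8 astrocytes. The low value of ATP5F1C therefore rests on a single dim probe set.

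In the stalk and membrane parts most genes were below 0 after quantile normalization. The 4 peripheral stalk genes had a median of -0.19 in RA and -0.14 in FGF8 astrocytes, and the 4 compared membrane genes -0.39 and -0.21. ATP5MG, which helps the synthase form dimers, had 455 and 449, against 721, and was 1.58-fold and 1.60-fold lower with 1 direction under all 4 scalings. Its 3 bright _x_at probe sets were nearer 0, at -0.48 to -0.42 in RA and -0.14 to -0.06 in FGF8 astrocytes. ATP5MK, a small membrane subunit, was at 0.33 and 0.26 and kept its direction. ATP5IF1, the inhibitor that binds the F1 head at low pH, had 848 and 697, against 1029, at -0.28 and -0.56, and turned above 0 with array medians equal. A dimmer probe set of ATP5IF1 went the other way, at 0.66 and 0.54.

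Other probe sets of the same genes give the technical spread. Beside the chosen ones, 46 further probe sets of 28 genes were above the floor on all 3 arrays. Of these 29 lay within 0.5 log2 units of the chosen one in RA and 36 in FGF8 astrocytes against neuroepithelial cells, and 36 in RA against FGF8 astrocytes. Signs matched for 30, 33 and 26. Over 48 bright probe sets of 20 genes, the pooled SD of the difference among probe sets of a gene was 0.25, 0.24 and 0.16, a technical spread that does not stand in for replicates. Counted by probe set, 3 of 131 were at least 2-fold higher and 2 lower in RA astrocytes, 3 of 131 and 2 in FGF8 astrocytes, and 0 of 134 and 0 between the astrocyte arrays. Among all probe sets compared 30.7%, 21.9% and 16.3% passed 2-fold.

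The probe sets past 2-fold that were not the chosen ones belonged to 5 genes, and for COX4I1, ATP5PB and NDUFC1 they were dim and did not follow the brighter probe set. For COX4I1 such a probe set had 149 in RA and 108 in FGF8 astrocytes, against 40.1 in neuroepithelial cells, while the bright probe set of COX4I1 stayed within 0.11. For ATP5PB it had 108 and 66.1, against a value at the floor (16.0), while the bright probe set of ATP5PB was at -0.13 and -0.14. For NDUFC1 it had 45.0 and 45.6, against 105, while the bright one of NDUFC1 was at 0.08 and 0.00. For ATP5F1D and SDHC they had the direction of the chosen probe set. That of ATP5F1D had 344 in RA and 188 in FGF8 astrocytes, against 169 in neuroepithelial cells, at 1.03 in RA astrocytes where the chosen one was at 0.69. That of SDHC had 329 and 247, against 571, at -1.21 in FGF8 astrocytes where the chosen one was at -0.55.

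Genes that build, feed and control the chain were taken as lists, and their genes spread more widely than the subunits, with an SD over genes of 0.47 to 0.90 for the 7 lists in RA astrocytes against neuroepithelial cells, beside 0.40 for the subunits. A narrow spread was not particular to the subunits. Cytosolic ribosomal protein genes, a comparison set, had an SD of 0.37 in RA and 0.28 in FGF8 astrocytes, where the subunits had 0.40 and 0.36. Brightness was not matched between these sets. The counts of these lists are read against all genes compared, of which 18.1% were at least 2-fold higher and 14.6% lower in RA astrocytes, and 12.8% higher and 10.2% lower in FGF8 astrocytes. Of 18 complex I assembly factors, 0 were at least 2-fold higher and 2 lower in RA astrocytes, and 1 higher and 3 lower in FGF8 astrocytes. These shares were below those of all genes, apart from the lower genes in FGF8 astrocytes. NDUFAF2, a chaperone of late complex I assembly, had 237 in RA and 228 in FGF8 astrocytes, against 582 in neuroepithelial cells. NDUFAF4, which acts early in assembly, had 311 and 330, against 687. Both were more than 2-fold lower in both astrocyte arrays, at -1.30 and -1.35 for NDUFAF2 and -1.15 and -1.06 for NDUFAF4, under every scaling below 0. COA1 was at least 2.82-fold higher in FGF8 astrocytes, with 74.4 against a value at the floor.

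Of 16 assembly factors of complexes II, III and V, 1 was higher and 3 lower in RA astrocytes, and 0 higher and 2 lower in FGF8 astrocytes. The share of lower genes was near that of all genes (14.6% in RA and 10.2% in FGF8 astrocytes), and the share of higher genes was below it (18.1% and 12.8%). SDHAF4, which helps attach SDHA to its partner, had 103 in RA and 144 in FGF8 astrocytes, against 300 in neuroepithelial cells. SDHAF3, which helps insert iron-sulfur clusters, had 131 and 91.6, against 296. These stood at -1.54 and -1.06 for SDHAF4 and at -1.18 and -1.69 for SDHAF3, while SDHA itself was at 0.08 and 0.43. The median of the list was -0.43 in RA and -0.38 in FGF8 astrocytes, and that in FGF8 astrocytes turned to 0.12 with array medians equal. Of 26 complex IV assembly factors 1 was higher (SCO2, a copper chaperone, at 1.23) and 1 lower (LRPPRC, which stabilises mitochondrial messenger RNA, at -1.04) in RA astrocytes, and 0 higher and 1 lower (COX11, at -1.02) in FGF8 astrocytes, all under the shares of all genes.

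The regulators of mitochondrial biogenesis had a median of -0.60 in RA astrocytes over 18 compared genes, with 0 higher and 4 lower, and -0.17 in FGF8 astrocytes, with 0 higher and 1 lower. Beside all genes (18.1% higher and 14.6% lower in RA, 12.8% and 10.2% in FGF8 astrocytes), the regulators had more lower genes by share in RA astrocytes and fewer in FGF8 astrocytes, on small counts. TFAM, which packages and transcribes mitochondrial DNA, had 92.3 in RA and 203 in FGF8 astrocytes, against 332 in neuroepithelial cells. ESRRG, an orphan nuclear receptor of oxidative tissues, was at the floor in RA astrocytes (1.7) and had 28.9 in FGF8 astrocytes, against 125. PPARGC1A, the coactivator PGC-1alpha, had 66.0 in RA astrocytes and was at the floor in FGF8 astrocytes (23.9), against 40.8 in neuroepithelial cells.

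TFAM was thus lowest in the RA array, 3.60-fold lower than in neuroepithelial cells and 2.20-fold lower than in FGF8 astrocytes, below 0 under all 4 scalings. ESRRG was at least 4.75-fold lower in RA astrocytes and 4.32-fold lower in FGF8 astrocytes. PPARGC1A was at least 2.50-fold higher in RA than in FGF8 astrocytes. The factors whose motifs were searched differed by -0.88 and -0.20 (NRF1), -1.12 and -0.60 (GABPA) and -0.46 and -0.09 (YY1) in RA and FGF8 astrocytes against neuroepithelial cells. The median of the list stayed below 0 in RA astrocytes under all 4 scalings and turned to 0.24 in FGF8 astrocytes with array medians equal.

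**Figure D5:**
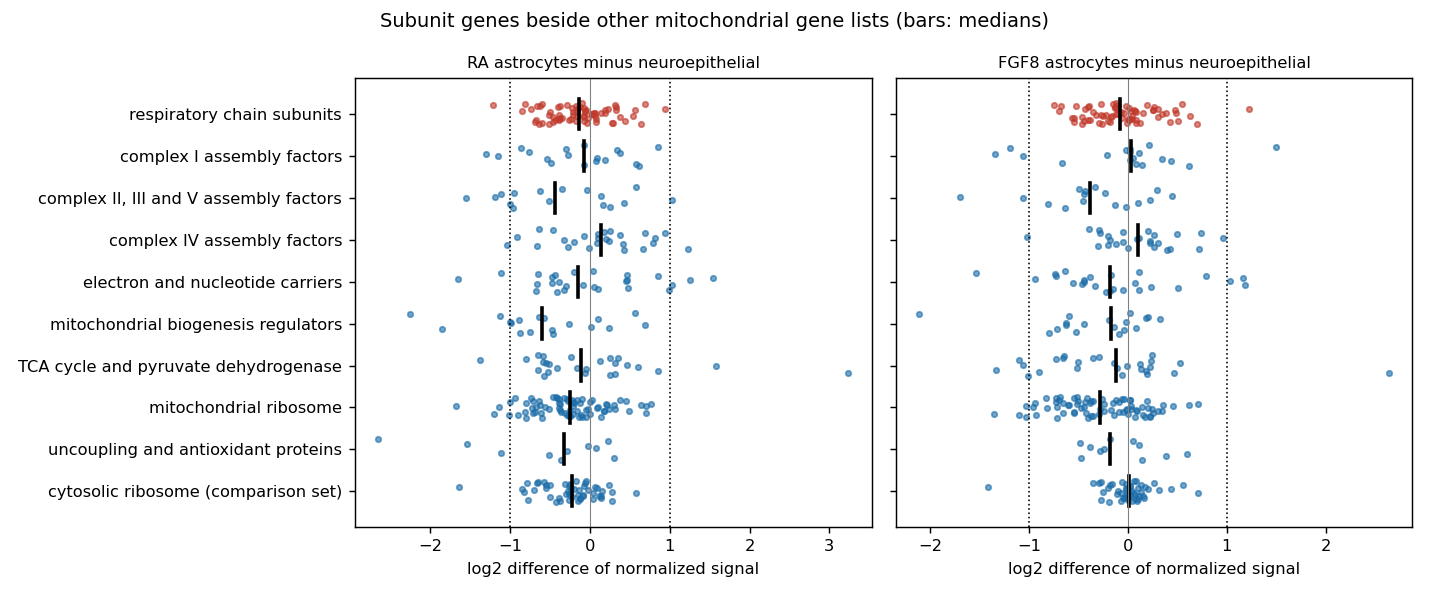
Log2 difference (x axis) of each gene of the subunit set and of 9 other lists (y axis, 1 row per list), with the median as a bar and 2-fold dotted, for RA astrocytes and FGF8 astrocytes against neuroepithelial cells. Subunit genes lie mostly within 2-fold, with 1 past it in each panel, and each of the 9 other lists also holds genes past it in 1 or both panels. PDP1 at 3.23 and 2.64 lies farthest to the right.

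Carriers and the enzymes that feed the chain varied gene by gene. Of 26 carrier and ubiquinone genes compared in RA astrocytes, 3 were higher and 2 lower, and of 25 in FGF8 astrocytes 3 were higher and 1 lower. All 4 shares were below those of all genes (18.1% and 14.6% in RA, 12.8% and 10.2% in FGF8 astrocytes). COQ6 and COQ9, enzymes of ubiquinone synthesis, were higher by 1.55 and 1.26 in RA and by 1.16 and 1.03 in FGF8 astrocytes, while COQ7, which acts late in the same pathway, was at -1.66 and -0.94. AK4, a matrix adenylate kinase, was at -1.11 and -1.54. CYCS, cytochrome c, had 3688 in RA and 3545 in FGF8 astrocytes, against 4828 in neuroepithelial cells, at -0.39 and -0.45.

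Among 26 genes of the TCA cycle and pyruvate dehydrogenase, 2 were higher and 1 lower in RA and 1 higher and 4 lower in FGF8 astrocytes. Only the lower genes in FGF8 astrocytes passed the share of all genes, which was 18.1% higher and 14.6% lower in RA and 12.8% and 10.2% in FGF8 astrocytes. PDP1, the phosphatase that activates pyruvate dehydrogenase, had 8630 in RA and 5707 in FGF8 astrocytes, against 917 in neuroepithelial cells. OGDH, of the oxoglutarate dehydrogenase complex, had 223 and 73.9, against 74.6, and IDH2, the NADP-dependent isocitrate dehydrogenase, had 598 and 724, against 1551. PDK1, a kinase that silences pyruvate dehydrogenase, was at -0.65 in RA and -1.33 in FGF8 astrocytes. PDP1 was higher in both astrocyte arrays, IDH2 lower in both, and OGDH higher in the RA array alone.

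The mitochondrial ribosome, which translates the mitochondrially encoded subunits, was lower by median. Of 75 genes 0 were higher and 5 lower in RA astrocytes (median -0.25), and 0 higher and 4 lower in FGF8 astrocytes (median -0.28), below the shares of all genes (18.1% and 14.6% in RA, 12.8% and 10.2% in FGF8 astrocytes). MRPL42 was at -1.68 and -1.03 and MRPS21 at -1.20 and -1.36, below 0 under all 4 scalings, while both medians turned above 0 with array medians equal. Set against all genes, the medians were below the general one under all 4 scalings, at -0.32 to -0.17 in RA and -0.33 to -0.16 in FGF8 astrocytes. The cytosolic ribosome (51 compared genes) had 0 higher and 1 lower in each, also below those shares, with medians of -0.23 (0.34 in the deposited values) and 0.01, and 1 gene, RPL31, at -1.64 and -1.41.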

How the data were processed

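Total RNA of 3 cultures, extracted with Trizol and a column cleanup and labelled with biotin at a core facility per the labels' protocols, was hybridised to 1 Affymetrix array each. The deposited values are an intensity per probe set on a linear scale, and the values show a scaling by the authors or their facility to a mean of 150.0 after trimming 2% at each end. The sources used here do not give how probe signals were summarised. The arrays' 75th percentiles differed by 0.14 log2 units, past a tolerance of 0.1, so the intensities were quantile normalized, floored at the median of 54613 non-control probe sets and brought to log2. Where only 1 of 2 arrays was above it, the difference is a lower bound. Single symbols came from 41091 probe sets, and 1801 with several were left out. All 152 member probe sets matched the reference gene table (GRCh38.p14) and 0 symbols were updated. Each gene was represented by its probe set of highest mean, not of the _x_at type where another existed (44 of the 78 symbols had several).

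Genes named are those past 2-fold, the highest and lowest of each complex and comparison, the brightest of each complex, restricted isoforms with their partners, complex II, ATP5IF1, NDUFA4, and up to 2 per direction and comparison of each list. Others (the factors whose motifs were searched, CYCS, core, stalk and split probe set examples) were chosen after their values were seen. The members and lists were chosen with earlier results of these data known. Counting was by size, at least 2-fold, with no test. It was run on simulated arrays, made as noisy copies of a mean profile in which few probe sets were changed. Those could not check the normalization under changes as wide as those between the arrays here. Alternatives were equal array medians, the deposited values, equal ribosomal protein medians, other floors, other probe set rules, 1.5-fold and 4-fold, and NDUFA4 in complex IV. Python 3.11.15, numpy 2.4.6, pandas 2.3.3 and matplotlib 3.10.9 were used.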

Additional observations from a re-analysis of the deposited data

Results flagged for a closer look

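Several probe sets of the respiratory chain lay outside the symbol rule and were used in no comparison above, yet they gave signals above the floor of 26.4. Transcripts of the mitochondrial genome were among them, and they were singled out after their values were seen. In the RA array ND2 gave 16925, ND4 19722, COX1 22085, COX2 20430 and ATP6 19341. In RA against FGF8 astrocytes these 5 differed by 0.06 to 0.22 on the log2 scale. After quantile normalization they differed by 0.26 to 0.54 in RA and by 0.17 to 0.32 in FGF8 astrocytes against neuroepithelial cells. These differences depended on the scaling. In the deposited values they were 1.08 (COX2) to 1.24 (ND4) in RA and 0.29 to 0.35 in FGF8 astrocytes against neuroepithelial cells, and 0.79 to 0.93 in RA against FGF8 astrocytes. Further probe sets of ND4 and COX2 were at 0.61 and 0.35 in RA and at 0.32 and 0.27 in FGF8 astrocytes after quantile normalization, while one of ATP6 was at -1.04 and 0.00. COX3 and ND6 also did not share the higher RA value. COX3 gave 919 in RA and 970 in FGF8 astrocytes, against 1869 in neuroepithelial cells, and ND6, encoded on the opposite strand, gave 205 and 428, against 512.

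Probe sets with several symbols also carried signal in the RA array. That of ATP5MF and ARMC2-AS1 gave 3086, with 2867 in FGF8 astrocytes, against 4597 in neuroepithelial cells, although the single-symbol probe set of ATP5MF was at the floor. That of UQCRH and UQCRHL gave 3060, with 3798 in FGF8 astrocytes, against 4785 in neuroepithelial cells. In the RA array NDUFS8 gave 1307, NDUFC2 2518, NDUFS5 with RPL10 5798, PTCD1 with ATP5MF-PTCD1 170.0, and NDUFS3 with PTPMT1 342. Against neuroepithelial cells they were, in that order, at 0.26, -0.15, 0.38, -0.01 and 1.08 in RA astrocytes. In FGF8 astrocytes they were at 0.13, -0.22, 0.01, -0.18 and 0.56. The single-symbol probe set of NDUFS3 was at -0.26 in RA astrocytes. Further shared probe sets were at -0.25 and 0.00 (NDUFS8), 0.43 (NDUFC2) and 0.71 (PTCD1) in RA astrocytes. The probe set shared by SDHA and its pseudogenes gave 88.7, with 86.8 in FGF8 astrocytes, against 192 in neuroepithelial cells. Signals of the genes named together cannot be told apart on such probe sets.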

How the results depend on the processing

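Of 228 settings tried on counts and medians, 184 stayed close to the values above and 44 moved. A median counted as moved when it shifted by more than the pooled SD over probe sets of a gene, a technical spread. It could thus stay close and still change sign. The subunit median in RA against neuroepithelial cells did so, from -0.14 to 0.06 in the deposited values. These counts are no measure of robustness, because some settings could not alter some results. Counting NDUFA4 in complex IV left the medians of the other complexes as they were, and other floors left those of complexes I to III unchanged. With array medians set equal, RA astrocytes had 5 subunit genes higher and 0 lower than neuroepithelial cells and FGF8 astrocytes had 6 higher. Of all genes compared, 35.9% passed 2-fold in either direction in RA and 29.0% in FGF8 astrocytes under that scaling. The subunit medians were then 0.47 and 0.44, those of complexes I to V 0.44, 0.52, 0.38, 0.58 and 0.36 in RA and 0.45, 0.56, 0.44, 0.59 and 0.40 in FGF8 astrocytes. That scaling raises all genes alike. With ribosomal protein medians equal, 3 subunit genes were lower in RA and 0 higher in FGF8 astrocytes, while 34.25% and 22.9% of all genes passed 2-fold. Complexes I to V then stood at -0.34, -0.25, -0.39, -0.19 and -0.41 in RA against neuroepithelial cells. They stood at -0.27, -0.47, -0.33, -0.22 and -0.25 in RA against FGF8 astrocytes. In the deposited values complex IV was at 0.069 in that comparison, and ATP5F1C, at 2.03-fold lower, took the place of ATP5MC2 as the 1 gene lower in RA astrocytes. In those values 31.9% of all genes passed 2-fold in RA astrocytes against neuroepithelial cells.

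A lower floor gave 2 higher in RA astrocytes, a higher one 0 higher in FGF8 astrocytes. Of all genes, 36.7% passed 2-fold in RA astrocytes at the lower floor and 19.0% in FGF8 astrocytes at the higher one. No floor gave 4 higher and 2 lower in RA, 3 and 1 in FGF8 astrocytes, and 1 and 1 between them, through genes under the floor and COX4I2. Without a floor 46.3%, 37.7% and 34.5% of all genes passed 2-fold in these comparisons. The mean of all probe sets gave 0 lower in RA astrocytes, where 24.4% of all genes passed 2-fold, and 0.10 for complex II between the astrocyte arrays. Without _x_at and _s_at types, RA had 2 higher (ATP5PB and COX4I1, through dim probe sets) and 0 lower, FGF8 had 3 higher, and complex II was at 0.18 between them. Under that rule 32.7% of all genes passed 2-fold in RA and 23.3% in FGF8 astrocytes. At 1.5-fold the counts were 3 higher and 11 lower in RA and 3 and 3 in FGF8 astrocytes, and at 4-fold 0 lower in RA and 0 higher in FGF8 astrocytes. Causes were not tested beyond what each setting does by construction. Dim genes near the floor, such as COX4I2, are least precise. No paired analysis was possible because each group had 1 array.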

Other observations

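Genes of uncoupling and antioxidant defence, which act beside the respiratory chain, were counted in the same way. Of 10 compared in RA astrocytes, 0 were at least 2-fold higher and 3 lower than in neuroepithelial cells, against 18.1% and 14.6% of all genes. Of 11 compared in FGF8 astrocytes, 0 were higher and 0 lower, against 12.8% and 10.2%. CAT, the peroxisomal catalase, was at the floor in RA astrocytes (3.8) and had 145 in FGF8 astrocytes, against 166 in neuroepithelial cells. GLRX5, which handles iron-sulfur clusters in mitochondria, had 535 in RA and 1106 in FGF8 astrocytes, against 1549 in neuroepithelial cells. SOD2, the manganese superoxide dismutase of the matrix, had 186 in RA and 399 in FGF8 astrocytes, against 264. CAT was at least 6.28-fold lower and GLRX5 2.90-fold lower in RA astrocytes, and SOD2 was 2.14-fold lower in RA than in FGF8 astrocytes.

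Genes often used as references, SDHA among them, spread more than the subunits did. Of 10 compared, 1 was higher and 3 lower in RA and 1 higher and 1 lower in FGF8 astrocytes against neuroepithelial cells, beside 18.1% higher and 14.6% lower of all genes in RA and 12.8% and 10.2% in FGF8 astrocytes. B2M, the light chain of MHC class I, had 16615 in RA and 12259 in FGF8 astrocytes, against 2455 in neuroepithelial cells. HPRT1, an enzyme of purine salvage, had 157 and 434, against 1132.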
